A study of Ulva lactuca with 4 samples.

Results

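Thalli of the green seaweed Ulva lactuca that had been desiccated for 72 h at 20% moisture were compared with thalli that had always stayed under water, by RNA sequencing with 1 library of total RNA on each side. The unit of measurement was the contig, a transcript sequence of a de novo assembly. The comparison takes in the 44612 contigs, of 105451 in all, that had at least 50 scaled counts in 1 of these 2 libraries, where a scaled count is a read count divided by the size factor of its library. The study also held 1 library after 24 h and 1 after 36 h of desiccation, which enter through the size factors and as levels beside the comparison. It asked which genes differ in expression when this alga dries. The sources used here give neither age nor strain of the thalli, nor their number per library, nor the hour at which the control was taken. Sampling time and the thalli chosen therefore cannot be told apart from desiccation.

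Ulva lactuca forms flat blades only a pair of cell layers thick that carry no cuticle, so at low tide a blade loses water to the air and takes it up again with the next tide. In intertidal algae, drying is known to slow photosynthesis and to raise reactive oxygen, and tolerant species are known for antioxidant enzymes, heat shock proteins and compatible solutes. The tables used here pair no contig with a gene or a protein. The results therefore describe contigs by level, size of difference and place in the assembly, and neither a pathway nor the labelled tissue could be set against known genes.

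The 72 h library held 53279365 counted reads and the control library 52643595, so their depth was nearly equal. Their size factors were 0.890 and 0.885. Contigs in the comparison took 99.1% of the reads at 72 h and 99.5% of those in the control. With 1 library a side there was no spread between thalli to set a difference against, no test across contigs was run, and each value compares 2 libraries and not 2 conditions. Intervals cover counting error only. The widest 95% half-width of a share of reads was 0.014 percentage points. Thalli are bulk tissue, so fewer cells of a type and less RNA per cell cannot be told apart.

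At 72 h, 7245 contigs were at least 4-fold higher than in the control, or 16.2% of those compared. Lower by 4-fold or more were 2645, or 5.93%. Both directions together made 22.2%. A larger group, 23641 contigs or 53.0%, lay within 2-fold of the control. The median log2 ratio of all contigs compared was 0.06, the quartiles were -0.76 and 1.17, and the 5th and 95th percentiles were -2.19 and 5.83. These percentiles include contigs that met the minimum in 1 library alone. Among contigs that met it in both, the median was -0.07, the quartiles -0.74 and 0.68, and the 5th and 95th percentiles -1.81 and 2.21. Not all of these calls lay beyond counting error. The whole 95% Clopper-Pearson interval of the ratio lay past 4-fold for 6209 of the higher contigs (85.7%) and 1788 of the lower ones (67.6%).

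**Figure D1:**
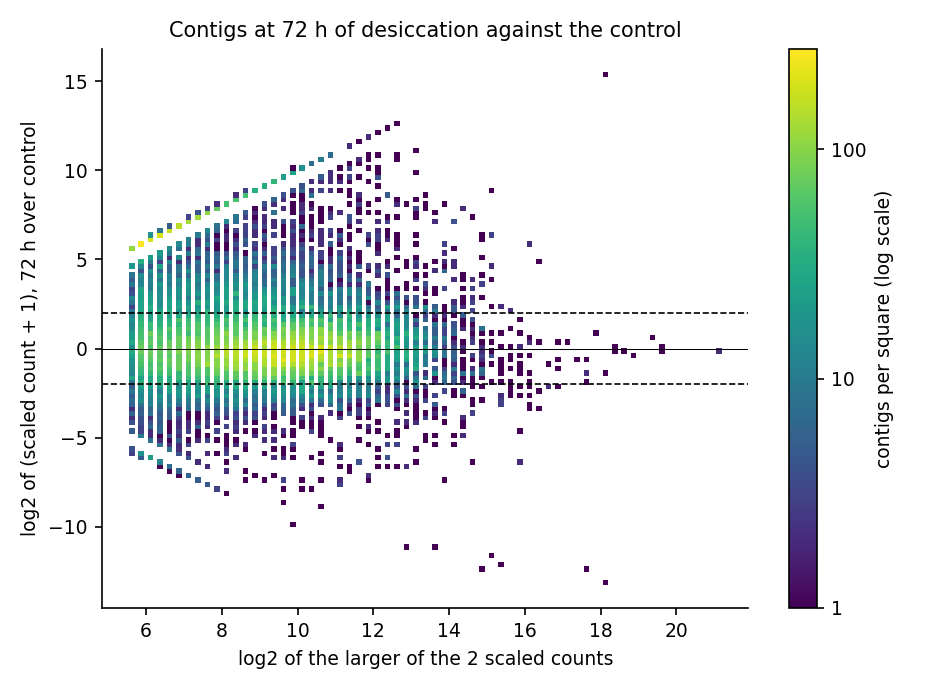
Each square counts contigs by the larger of their scaled counts in the 72 h and control libraries (x axis, log2) and by the log2 ratio of 72 h over control (y axis), with dashed lines at 4-fold. The cloud centres on the median of 0.06, and the 7245 contigs above the upper line outnumber the 2645 below the lower one. The straight upper and lower edges at the left are contigs with 0 reads in 1 of the 2 libraries.

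The balance of directions changed with the size of the difference. Between 2-fold and 4-fold, 5113 contigs were higher and 5968 lower at 72 h, so in this class lower contigs were in the majority. Between 4-fold and 8-fold the order was turned, with 2292 higher and 1707 lower. From 8-fold to 16-fold there were 1366 higher and 488 lower contigs. At 64-fold or more there were 1997 higher and 153 lower contigs, but 1542 of these higher ones and 78 of these lower ones had 0 reads on the other side, so that their fold rests on the pseudocount. With 3 reads in place of each 0, 887 higher and 80 lower contigs were at 64-fold or more. Among contigs with at least 50 scaled counts in both libraries, 4177 were higher and 5013 lower between 2-fold and 4-fold, 1375 higher and 1032 lower between 4-fold and 8-fold, and 516 higher and 179 lower between 8-fold and 16-fold. At 64-fold or more, 28 of these were higher and 14 lower. More contigs were lower than higher between 2-fold and 4-fold under each of the 4 scalings for which this class was counted. The surplus of lower ones in that class was 5968 against 5113 as given and was 7180 against 4195 with upper quartile scaling, which put the median log2 ratio of all contigs at -0.14, against 0.06.

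**Figure D2:**
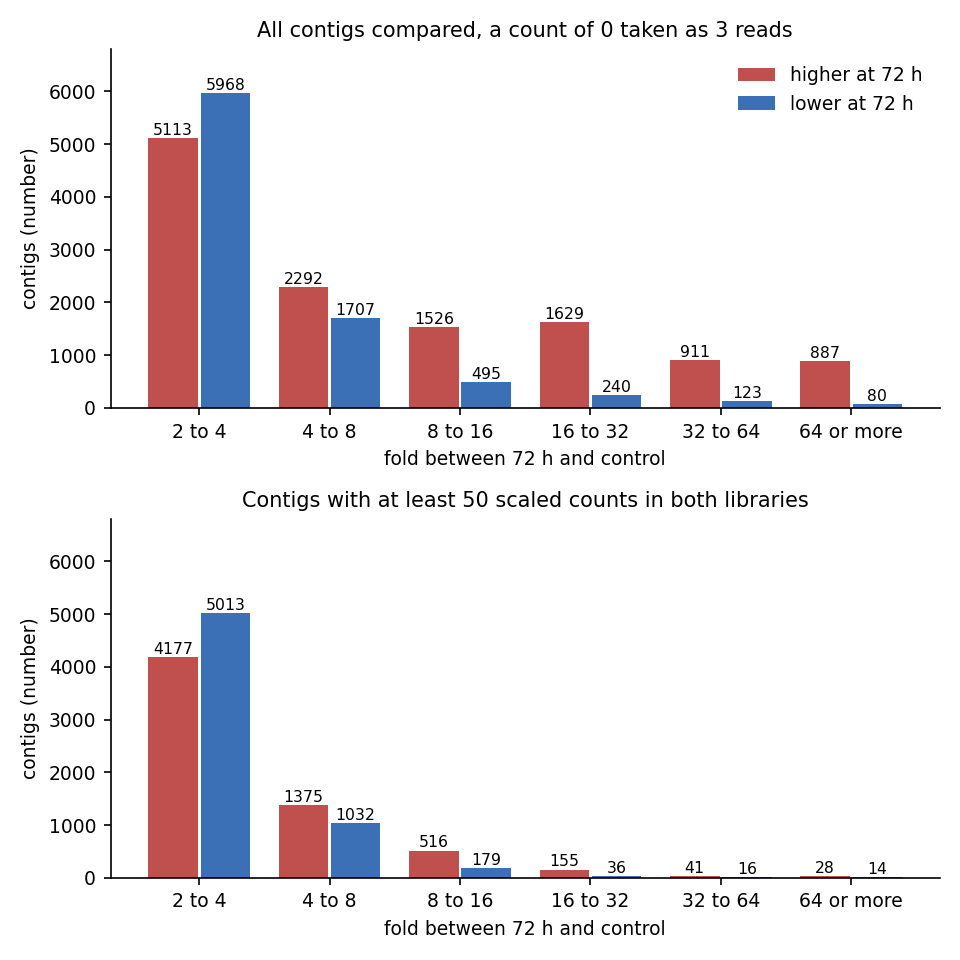
Bars give the number of contigs (y axis) that were higher at 72 h (left bar of each pair) or lower at 72 h (right bar) by fold between the 72 h and control libraries (x axis), for all contigs compared with 3 reads in place of a 0 (top) and for contigs that met the minimum in both libraries (bottom). Between 2-fold and 4-fold, 5113 were higher and 5968 lower at the top and 4177 and 5013 at the bottom. At 64-fold or more the numbers were 887 higher and 80 lower at the top and 28 and 14 at the bottom.

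Most of the higher contigs had few reads in the control. Of the 7245, 5130 (70.8%) met the minimum of 50 scaled counts at 72 h alone. A contig that meets the minimum in 1 library alone is likely by construction to differ, so its count is no support for a direction. Of the 2645 lower contigs, 1368 (51.7%) met the minimum in the control alone. Among the 35275 contigs that met it in both libraries, 2115 (5.996%) passed 4-fold as higher at 72 h and 1277 (3.62%) as lower, and the median log2 ratio was -0.07. Higher contigs then made up 62.4% of the differing ones, against 73.3% over all contigs compared. Contigs on both sides of the minimum had the following shares. Of the 735 contigs just inside it, with 50 to 55 scaled counts, 37.4% were at least 4-fold higher and 9.80% lower. Of the 900 just outside, with 45 to 50, 32.8% were higher and 12.4% lower.

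Some contigs were undetected in 1 of the 2 libraries and so met the minimum through the other alone. There were 1925 contigs at least 4-fold higher with 0 reads in the control, against 102 contigs at least 4-fold lower with 0 reads at 72 h. The whole assembly leaned the same way: of 105451 contigs, 98649 had reads at 72 h and 81547 in the control. Of the contigs below the minimum, 35764 had the larger scaled count at 72 h and 23425 in the control. The direction of the 1925 against 102 is therefore not particular to these contigs. The sizes of these splits were not compared, because each counts a different thing. With 3 reads put in place of each 0, per library, the 1925 were at least 14.9-fold to 1841-fold higher, with a median bound of 31.1-fold. The 102 were at least 15.1-fold to 279-fold lower, with a median bound of 22.1-fold. These contigs were mostly weakly read, with a median of 94 reads at 72 h for the 1925 and of 66 reads in the control for the 102. The 1925 took 0.685% of the reads at 72 h. The median log2 ratio of the 7245 higher contigs was 3.97, and 3.92 with the contigs at 0 set to their bound. That of the lower contigs was -2.68 in both cases.

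At the other end, 799 of the higher contigs already had 200 reads or more in the control. They were 11.0% of the higher contigs and took 8.26% of all reads at 72 h, of the 14.2% that the whole class took. Likewise 588 of the lower contigs kept 200 reads or more at 72 h, and they took 7.04% of the reads of the control. The larger part of the reads on differing contigs was therefore on contigs that both libraries read well, while the larger part of the differing contigs was not of this kind.

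Measured by reads instead of contigs, the directions were closer to balance. The shares of a library add up to the whole, so a share gained by some contigs is lost by others. A balance by reads over all contigs is thus set by the measure and is no result about the directions. Within 1 class of fold, the shares gained and lost need not balance. The contigs at least 4-fold higher took 14.2% of the reads at 72 h (95% interval 14.20 to 14.22) and 1.504% of those in the control. Those at least 4-fold lower took 1.24% of the reads at 72 h and 9.66% in the control (9.65 to 9.67). Contigs 2- to 4-fold higher took 12.6% at 72 h and 4.83% in the control, and contigs 2- to 4-fold lower took 6.75% at 72 h and 17.7% in the control. Contigs within 2-fold took 64.3% of the reads at 72 h and 65.7% in the control. In all, 29.0% of the reads would have to be placed on other contigs to turn the makeup of the control library into that of the 72 h library. The same measure was 33.0% for the 24 h library and 28.8% for the 36 h library. These 3 values share the control library and are given side by side without a comparison.

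Contigs of different abundance differed to different extents. By the larger of the 2 scaled counts, 27.9% of the 11519 contigs with 50 to 200 passed 4-fold as higher at 72 h and 8.55% as lower. With 200 to 1000 scaled counts, the shares were 14.2% higher and 4.95% lower of 17411. With 1000 to 10000, they were 9.52% higher and 4.71% lower of 14932, and 60.3% lay within 2-fold. The 750 contigs with 10000 or more departed again, with 18.9% higher, 12.5% lower and 39.5% within 2-fold. The share of higher ones among the differing contigs was 76.5%, 74.1%, 66.9% and 60.2% in these 4 classes, taken from the weakest to the strongest. With 50 to 200, a contig 4-fold apart had under 50 scaled counts on the other side. All differing contigs there thus met the minimum in 1 library alone, and 76.5% is no support for a direction. The other classes also hold such contigs, and their shares were not split by the library that met the minimum. The class of 750 contigs took 32.5% of the reads at 72 h and 36.1% of those in the control.

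**Figure D3:**
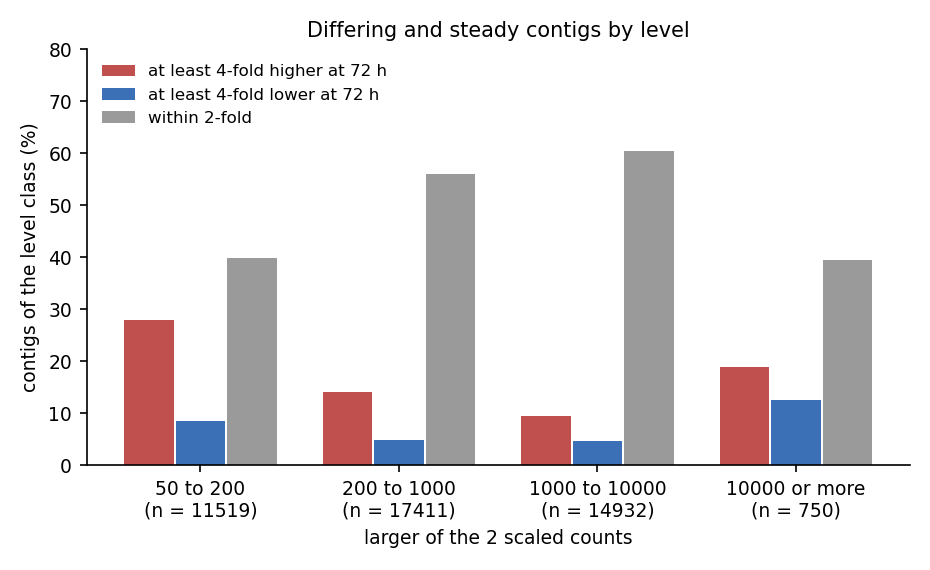
Bars give the percent of contigs in each class of level (x axis, the larger of the scaled counts at 72 h and in the control) that passed 4-fold as higher at 72 h, passed it as lower, or lay within 2-fold. The share within 2-fold is highest at 1000 to 10000 scaled counts (60.3%) and lowest in the strongest class (39.5%), where 18.9% were higher and 12.5% lower. At 50 to 200, each contig past 4-fold met the minimum in 1 library alone, so these 2 bars are no support for a direction.

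The leading 10 contigs were nearly the same in both libraries, and the leading 100 less so. Of the 10 contigs with most reads at 72 h, 9 were also among the 10 of the control, and 9 lay within 2-fold. The leading contig had 1886160 reads at 72 h and 2106547 in the control, a ratio of 0.890 (0.888 to 0.892). It took 3.54% of the reads at 72 h and 4.002% in the control. The contig of rank 2 had nearly the same counts, 1886120 reads at 72 h and 2106522 in the control. Both are among the 9, and the part of shared reads in their counts was not tested. The contig of rank 3 at 72 h had 733689 reads there and 641462 in the control, a ratio of 1.14 (1.13 to 1.14), although the 24 h library held 4504054 of its reads. Of the 100 contigs with most reads at 72 h, 46 were among the 100 of the control. Of those 100 of the 72 h library, 30 were at least 4-fold higher than in the control and 48 within 2-fold. Of the 100 leading contigs of the control, 30 were at least 4-fold lower at 72 h and 45 within 2-fold. The 100 leading contigs took 20.6% of the reads at 72 h and 24.4% in the control.

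Among contigs at least 4-fold apart, c18556_g1_i1 had the largest gain in scaled counts. It had 241745 reads at 72 h and 5 in the control, a ratio of 48060 (95% interval 20594 to 148017), with 67 reads at 24 h and 55 at 36 h. Of the 4 libraries, the one at 72 h held nearly all its reads, 0.454% of that library. It was the only contig of its cluster. The c and g numbers of an identifier name its cluster in the assembly, and c alone numbers the component that a cluster belongs to.

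The next largest gain among contigs at least 4-fold higher was that of c14149_g2_i1, with 71282 reads at 72 h and 2373 in the control. Its ratio was 29.9 (28.7 to 31.1). Its scaled counts were 2682 in the control, 14140 at 24 h, 33173 at 36 h and 80092 at 72 h, a larger value at each longer time. The other contig of its component that was compared was also at least 4-fold higher. The 8 contigs that followed in gain lay in 6 clusters, with 32119 to 60664 reads at 72 h and 72 to 10136 in the control, and their ratios ran from 4.13 to 466. Of these 8, 4 had another contig of their cluster within 2% of their count in each of the 4 libraries. The part of shared reads in their counts was not tested.

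Of the contigs at least 4-fold lower, c57626_g1_i1 and c19261_g3_i1 had the largest losses in scaled counts. The first had 31 reads at 72 h and 265993 in the control, 8632-fold lower (6081 to 12705), and 75 reads at 24 h and 121 at 36 h. It took 0.505% of the reads of the control. The second had 31 reads at 72 h and 168708 in the control, 5475-fold lower (3857 to 8058), with 30 reads at 24 h and 44 at 36 h. Both were thus low in all 3 desiccated libraries and high in the control alone. Neither had another contig in its cluster, and of the 3 other contigs compared in the component of c19261_g3_i1, 1 was higher at 72 h and 0 were lower. The 8 contigs that followed in loss lay in 7 clusters, with 617 to 21445 reads at 72 h and 53232 to 101162 in the control, and were 4.17-fold to 86.8-fold lower. Of these 8, 0 had such a near-equal contig in their cluster.

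**Figure D4:**
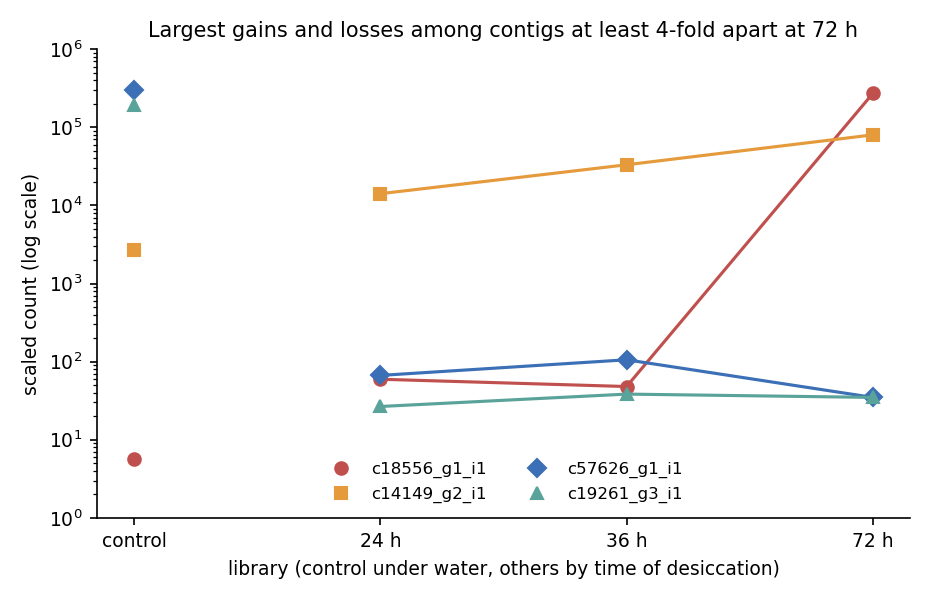
Points give the scaled count (y axis, log scale) in each of the 4 libraries (x axis) of the 2 contigs with the largest gain and the 2 with the largest loss at 72 h among those at least 4-fold apart, with lines joining the desiccated libraries. The contig c18556_g1_i1 has 271623 scaled counts at 72 h and at most 59.5 in the other libraries, c14149_g2_i1 is higher at each longer time, and the other 2 contigs have at most 106 in the desiccated libraries against 190698 or more in the control.

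The classes fixed at 72 h were followed in the libraries of the shorter times. The 7245 higher contigs had a median of 13.6 scaled counts in the control, 39.1 at 24 h, 47.1 at 36 h and 256 at 72 h. Their quartiles were 2.62 and 300.2 at 36 h, a wide spread, against 98.9 and 815 at 72 h. Of these contigs, 1925 had 0 reads in the control, 1469 at 24 h, 1398 at 36 h and 0 at 72 h. The 2645 lower contigs had a median of 345 scaled counts in the control, 80.8 at 24 h, 81.2 at 36 h and 46.1 at 72 h. The median of the lower class was thus lower at 24 h than in the control, and that of the higher class at 36 h stood nearer to its value in the control than to that at 72 h. The classes were chosen by their values at 72 h and in the control, so those 2 medians are set by the choice, and all ratios to the control share 1 library. A class chosen for high counts in 1 library tends by that choice to have lower counts in the others. The medians at 24 h and 36 h are therefore no support for an early loss or a late gain. Relative to the control, the median log2 ratio of the higher contigs was 0.78 at 24 h and 1.15 at 36 h, and that of the lower contigs -2.06 at 24 h and -2.07 at 36 h. Over all contigs compared, it was -0.0041 at 24 h and -0.025 at 36 h.

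**Figure D5:**
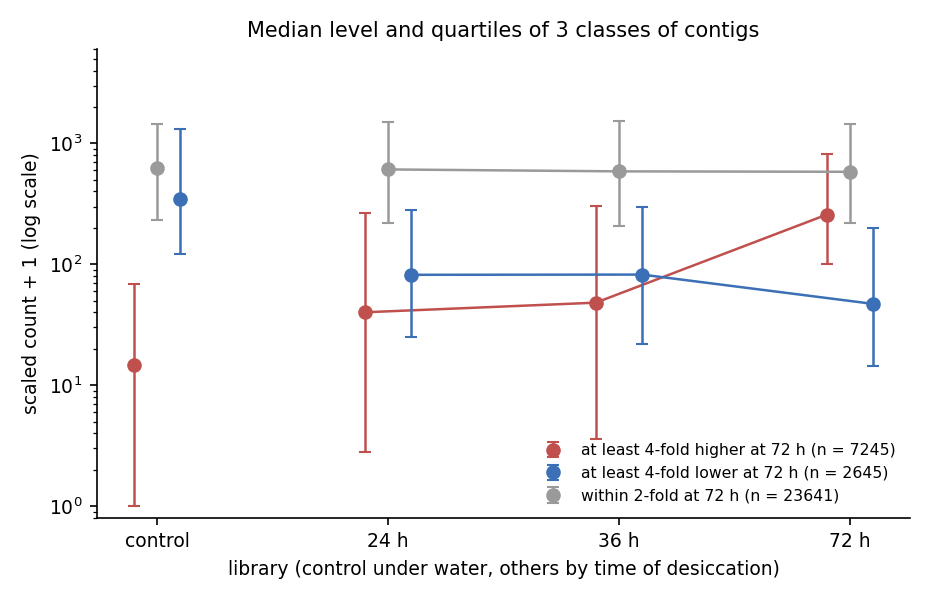
Points give the median and bars the quartiles of scaled count + 1 (y axis, log scale) in each library (x axis) for the contigs that at 72 h were 4-fold higher or more, 4-fold lower or more, or within 2-fold, with lines joining the desiccated libraries. The median of the lower class is near 81 at 24 h and 36 h, against 345 in the control, while that of the higher class is 47.1 at 36 h and 256 at 72 h.

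Contigs of 1 cluster mostly fell in the same class. Of 8297 clusters with at least 2 contigs in the comparison, 1608 had a contig at least 4-fold higher, and in 1187 of them (73.8%) each compared contig was. Of 623 clusters with a contig at least 4-fold lower, each compared contig was lower in 366 (58.7%). In 6085 clusters no contig passed 4-fold. The median distance between the highest and the lowest log2 ratio in a cluster was 0.21. Contigs in both directions were found in 19 clusters, where this distance ran from 4.34 to 14.91.

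Some contigs of a cluster had nearly the same counts. Of the contigs compared, 8309 (18.6%) had another contig of their cluster within 2% of their count in each of the 4 libraries. The sources used here do not say how reads that match several contigs were assigned, and the part of shared reads in these counts was not tested. They made up 0.990% of contigs with 50 to 200 scaled counts, 10.9% with 200 to 1000, 40.1% with 1000 to 10000 and 40% with 10000 or more. They were 7.27% of the higher contigs, 5.44% of the lower ones and 24.6% of those within 2-fold. These shares are set in part by the tolerance: with under 50 reads in a library, a match within 2% means an equal count. Contigs with few reads in a library thus qualify less easily, and the classes are not compared on this trait. With 1 contig kept per group of such contigs, 6935 were higher and 2563 lower of 39290, and the higher ones took 12.2% of the reads at 72 h. In clusters that held at least 2 contigs with distinct counts, each compared contig was higher in 73.3% of the 1579 with a higher one.

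In the 3 weaker classes of level, differing contigs were more often the only contig of their cluster than contigs within 2-fold. With 50 to 200 scaled counts, 42.6% of the higher contigs, 54.3% of the lower ones and 22.4% of those within 2-fold were alone in their cluster. With 200 to 1000, the shares were 14.8%, 22.6% and 6.54% in that order, and with 1000 to 10000 they were 7.24%, 11.2% and 2.72%. With 10000 or more, 14.1% of the higher contigs, 34.0% of the lower ones and 30.7% of those within 2-fold were alone. These are descriptions of 1 pair of libraries, with no test.

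In the authors' deposited table of this pair, the scaled values equalled the read counts for all 105451 contigs, which corresponds to size factors of 1. The median of ratios over these 2 libraries alone also came to 1 for both. The status column of the authors' deposited table named 2823 contigs as higher at 72 h (6.33% of those compared) and 569 as lower (1.28%). All 3392 were at least 4-fold apart by scaled counts, and they were 38.96% of the 7245 higher contigs and 21.5% of the 2645 lower ones. At 8-fold to 16-fold, the status of the authors' deposited table marked 0 of 663 contigs with 50 to 200 scaled counts, 34.8% of 735 with 200 to 1000 and 100% of 403 with 1000 to 10000. At 4-fold to 8-fold, it marked 25.2% of 1157 with 1000 to 10000 scaled counts and 11.9% of 109 with 10000 or more. The share of contigs so named thus differed with level as well as with fold.

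An adjusted p-value under 0.05 in the authors' deposited table was rarer, with 492 contigs higher and 60 lower at 72 h, together 1.24% of those compared. The smallest difference among these contigs was 38.7-fold, and the smallest of their larger scaled counts was 436. At 64-fold or more, such a value stood in the authors' deposited table for 0 of 1174 contigs with 50 to 200 scaled counts, 30.0% of 647 with 200 to 1000, 98.7% of 299 with 1000 to 10000 and 93.3% of 30 with 10000 or more. The contig c14149_g2_i1, with 71282 reads at 72 h and 2373 in the control, had an adjusted p-value of 0.438 in the authors' deposited table, and c18556_g1_i1 one of 0.00745. Since each condition has 1 library, no spread between thalli stands behind these p-values.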

How the data were processed

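Total RNA of Ulva lactuca thalli was sequenced in 4 libraries, 1 per condition, and the 72 h and control libraries were compared. Read counts per contig were deposited by the authors and are not normalized. Tools named in the submitters' processing notes are Bowtie2, cutadapt and DESeq. The sources used here give neither their settings, nor the assembler, nor how a read that matches several contigs was treated. The scaled signal (base mean), the fold change (a linear ratio) and the p-values were also deposited by the authors, per the file headers. Counts of 24 h and 36 h came from the tables of these libraries against the control, in which the 2 repeated control columns were identical. Each per-sample column of the 3 tables used belongs to a labelled sample.

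Size factors were the median of ratios over the 70998 contigs with reads in all 4 libraries. A contig entered where its larger scaled count of the pair was 50 or more, and was counted as different at 4-fold or more on the scale of scaled count + 1. Ratios printed for single contigs had nothing added and have 95% intervals by the exact Clopper-Pearson method. These hold counting error alone and do not allow for duplicate PCR reads. For a count of 0, 3 reads were put in its place. At most 2 higher and 2 lower contigs were named, those with the largest gain or loss in scaled counts among contigs at least 4-fold apart. The members, classes and rules were chosen with earlier results of these data known. Alternatives covered the filter, pseudocount, scaling, threshold, cluster sums and the authors' fold change. The comparison limited to contigs with the minimum in both libraries, that with 1 contig per group of near-equal counts, the bound for counts of 0 in the classes of fold and the scalings of the class of 2-fold to 4-fold were chosen after seeing the data. The rule was also tested on simulated data. Calculations used Python 3.11.15, pandas 2.3.3, SciPy 1.17.1 and, for TMM, edgeR 4.0.16 in R 4.3.3.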

Additional observations from a re-analysis of the deposited data

How the results depend on the processing

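No paired analysis was possible because each condition has 1 library, and for the same reason no library could be left out. More contigs were higher than lower at 72 h, by the threshold of the setting, in each of the 17 alternatives run for these counts. All 17 reused the same 2 libraries, so their number adds no support for a direction. The numbers higher and lower were 17580 and 4940 with a filter of 10 scaled counts, 27144 and 7601 with no filter, 4031 and 1660 with a filter of 200, 12358 and 8613 at 2-fold, 4953 and 938 at 8-fold, 3715 and 1360 with contigs summed per cluster, and 2115 and 1277 with the minimum met in both libraries. These differ in the number of contigs that could be counted or in the size asked for. The other alternatives gave 5585 to 7358 higher and 1788 to 3235 lower contigs. Both ends are named: 5585 came without contigs read in 1 library alone, 7358 and 2729 with library totals, 1788 where the whole interval had to pass 4-fold, and 3235 with upper quartile scaling.

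The median log2 ratio was -0.14 with upper quartile scaling, against 0.06 as reported. That scaling gave 12.9% of the reads at 72 h on higher contigs, 11.3% of those of the control on lower contigs and 52.2% of contigs within 2-fold. The share of 72 h reads on higher contigs was 14.18% with library totals, 14.19% with TMM, 13.7% with a filter of 200, 13.6% without contigs read in 1 library alone, 10.8% with the minimum met in both libraries and 12.2% with 1 contig per group of near-equal counts. The share of control reads on lower contigs was 9.79%, 9.76%, 9.49%, 9.65%, 8.13% and 9.08% in the same order of settings. Contigs within 2-fold made up 57.6% with a filter of 200, 55.1% without contigs read in 1 library alone, 64.3% with the minimum met in both and 50.5% with 1 contig per group of near-equal counts. The median log2 ratio was -0.0086 with a filter of 200, 0.0059 without contigs read in 1 library alone and -0.067 with the minimum met in both. Depth limits the weakest contigs: 1925 higher and 102 lower contigs have 0 reads on 1 side and a bound in place of a ratio.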
